A study of Mus musculus with 10 samples.

Results

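The BTG and TOB genes are a family of antiproliferative genes, of which 5 members, *Btg1*, *Btg2*, *Btg3*, *Tob1* and *Tob2*, were followed in RNA of mouse intestinal crypts. They were taken by name from the 54838 genes listed for each library, and all 5 were among the 14719 genes that passed the filter on low counts. The family was chosen by the measured level of *Btg1*, which separates WT from *Arid3a* cKO crypts, so the genotype difference in *Btg1* is given below as a description, without a test. The other 4 members entered by family name. The members and the gene lists were chosen with earlier results of these data known, so their counts of calls beside the share of all genes are descriptions.

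Crypts of the jejunum were sequenced as polyA RNA from 10 mice, 5 WT and 5 *Arid3a* cKO, with a library for each. In the cKO animals, which carried floxed *Arid3a* (*Arid3a* fl/fl), a tamoxifen-inducible Cre was driven by the villin promoter (VillinCre-ERT2+/-), which is active in the intestinal epithelium and not in the stroma or in blood cells. WT animals received tamoxifen too, with 3 days of tamoxifen recorded for each animal, and both genotypes were collected 1 month after the first injection. The loxP and Cre alleles of the WT animals and the age of the mice are not given in the sources used here. The animal identifiers fell into 6 stems, 3 for each genotype, in separate number series. The labels do not say what a stem or series stands for, and whatever it reflects cannot be told apart from genotype.

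BTG and TOB proteins share an N-terminal domain that binds the CAF1 subunits of the CCR4-NOT complex, CNOT7 and CNOT8, which shorten the poly(A) tails of mRNAs. Through this contact they speed up deadenylation and decay of mRNAs, and TOB1 and TOB2 in addition bind the poly(A)-binding protein PABPC1. *Btg1* and *Btg2* are known for holding lymphocytes at rest, *Btg2* also as an immediate early gene and a p53 target, and *Tob1* as a protein that associates with the receptor ERBB2. In many tissues the family restrains entry into S phase.

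Total expected counts were 27050455 to 28152743 in WT and 28314069 to 31053622 in cKO libraries. *Arid3a* itself averaged 2.42 ± 0.397 CPM in WT libraries, against 0.673 ± 0.350 CPM in cKO (SD, n = 5 animals each, CPM being counts scaled to TMM-normalized library sizes). Its log2 fold change, cKO over WT, was -1.84 (adjusted p 0.00204, edgeR quasi-likelihood test). The 6 marker genes of epithelium were abundant in every library. *Epcam*, *Cdh1*, *Krt8* and *Krt19* stood at no less than 707.5 CPM, *Vil1* at no less than 536.3 CPM and *Krt18* at no less than 300.4 CPM. Of the 6, 1 passed the threshold given below, *Vil1*, higher in cKO (log2 fold change 0.80, adjusted p 0.00182 in edgeR). WT replicates 3 and 4 stood apart from the other libraries in clustering, and calls that change without them are given beside the results. Of all genes tested, 28.3% passed the adjusted threshold of 0.05, 15.6% higher and 12.7% lower in cKO.

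The sequences below precede a RefSeq start site of each of the 3 members that lay highest in cKO relative to WT. They are taken from the RefSeq promoter table of GRCm38.p6, in which all 5 members were found. Each is the stretch of 250 bases before the RefSeq start site, printed 5′ to 3′ on the strand of the gene. *Btg1* is at chr10:96616751-96617000 on the plus strand, *Btg2* at chr1:134079156-134079405 on the minus strand and *Tob1* at chr11:94211204-94211453 on the plus strand. The *Btg1* stretch lies before the long of its 2 annotated transcripts. The short one starts further on, at position 96617554, and the bases before that start were not searched. Capitals mark the forkhead core TGTTTAC, the cyclic AMP response element TGACGTCA, its core CGTCA, which the full element holds on both strands, the CCAAT box and the TATA box letters TATAAA, each searched on both strands.
Btg1 promoter: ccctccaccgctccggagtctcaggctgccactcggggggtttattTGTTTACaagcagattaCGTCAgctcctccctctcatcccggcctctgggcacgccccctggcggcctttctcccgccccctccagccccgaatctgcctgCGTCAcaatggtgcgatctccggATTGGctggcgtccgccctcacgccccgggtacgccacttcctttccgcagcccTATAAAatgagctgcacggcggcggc
Btg2 promoter: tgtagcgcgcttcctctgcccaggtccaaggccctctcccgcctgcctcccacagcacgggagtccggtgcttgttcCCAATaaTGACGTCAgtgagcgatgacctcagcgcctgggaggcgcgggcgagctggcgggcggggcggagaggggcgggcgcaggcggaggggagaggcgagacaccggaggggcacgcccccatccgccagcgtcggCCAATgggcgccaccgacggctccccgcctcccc
Tob1 promoter: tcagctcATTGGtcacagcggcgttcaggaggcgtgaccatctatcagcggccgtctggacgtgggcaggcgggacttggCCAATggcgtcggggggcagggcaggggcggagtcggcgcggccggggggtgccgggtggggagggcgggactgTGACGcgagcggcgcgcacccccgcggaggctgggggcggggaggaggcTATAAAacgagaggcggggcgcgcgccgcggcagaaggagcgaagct

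The *Btg1* stretch held TGTTTAC 204 bases before the start, which 3.17% of 32536 promoters of this length hold, and CGTCA at 187 and 103 bases. The *Btg2* stretch held the full element TGACGTCA at 166 bases, found in 1.56% of promoters. *Tob1* held CGTCA once, at 96 bases, and 17.9% of promoters do. CCAAT occurred in all 3 stretches, and in 33.8% of promoters. TATAAA, searched only after the sequences had been seen, lay 26 bases before the start in *Btg1* and 47 bases before it in *Tob1*, and occurs in 12.3% of promoters. The stretches were rich in G and C, at 65.2% in *Btg1*, 73.2% in *Btg2* and 73.6% in *Tob1*, against a median of 52.4% over all promoters. The AP-1 letters TGANTCA (6.73% of promoters), the A+T-rich letters ATTAAA (12.6%), and CAAAGTCCA (0.387%), a sequence of the HNF4 type, were in none of the 3, nor in the stretches of *Btg3* and *Tob2*. A match of letters is a description and not a binding site.

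*Btg1* (ENSMUSG00000036478, chr10:96617006-96622809, plus strand, GRCm38) was the most abundant member and the one that set the genotypes furthest apart. Its level in the WT animals was 94.1, 94.1, 90.4, 71.7 and 76.0 CPM, and in the cKO animals 187, 223, 199, 211 and 238 CPM. Every cKO library lay above every WT library, with a wide gap between them. The means were 85.3 ± 10.6 CPM in WT and 211.5 ± 19.8 CPM in cKO (SD, n = 5), or 2.48-fold, which is 1.31 on the log2 scale (SE 0.10). Of all genes tested, 338, or 2.30%, had a larger log2 fold change, and the median over all genes was -0.03. Because this difference chose the family, no test is attached to it. The libraries hold 2090 to 6282 counts of the gene, so counting error is small beside the spread between animals.

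**Figure D1:**
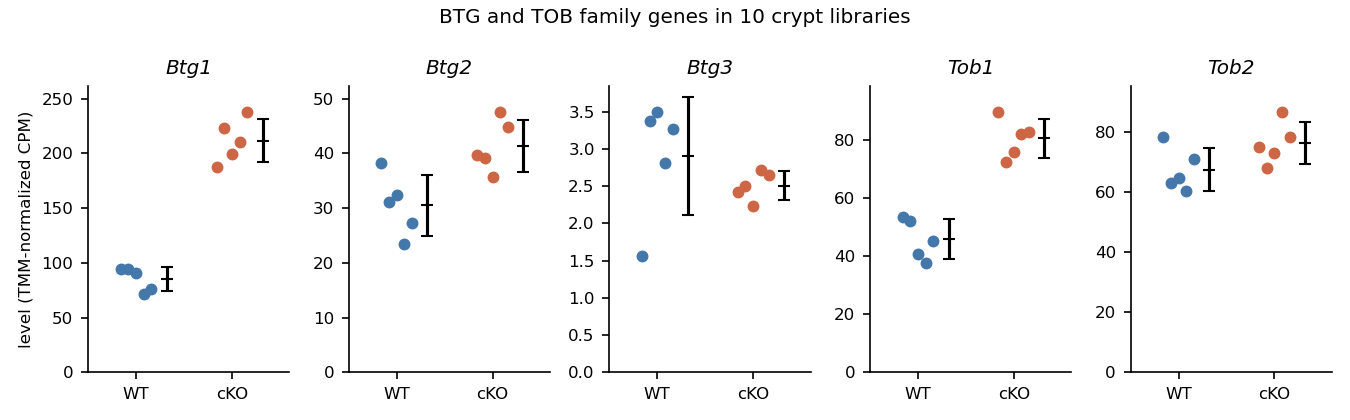
Level of each member in each library, in TMM-normalized CPM from 0, with 5 WT and 5 cKO animals as points and the mean with its SD as a bar beside them. For Btg1 and Tob1 the genotypes do not overlap, and for Btg2, Btg3 and Tob2 they do.

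Part of the difference in counts of *Btg1* came with a difference in the length of its transcripts. The annotation holds 2 protein-coding transcripts of *Btg1*. The long one (ENSMUST00000038377) has 2 exons, 5001 bases and 171 codons. The short one (ENSMUST00000218953) has 668 bases and 96 codons, and its first exon, at chr10:96617554-96617828, lies within the first intron of the long transcript, at chr10:96617473-96618275. Both use the same acceptor of the second exon, at position 96618276, after which the long transcript runs 4141 bases further in the 3′ direction. The reading frame is shared, and the start codon of the short transcript is codon 76 of the long one. The sequences below give both starts in the genome, at chr10:96617325-96617384 for the long and chr10:96618323-96618382 for the short transcript, with the start codon in capitals.
Start of the long coding sequence: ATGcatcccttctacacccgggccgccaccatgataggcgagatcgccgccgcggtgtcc
Start of the short coding sequence: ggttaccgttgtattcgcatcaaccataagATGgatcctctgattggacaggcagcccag

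RSEM reports for each gene and library a mean transcript length, weighted by the estimated abundance of each transcript. For *Btg1* it was 2421, 2320, 2239, 2295 and 2175 bases in WT and 2969, 3089, 2972, 2879 and 2769 bases in cKO. All cKO values exceeded all WT values, by 645.7 bases on average (2290 ± 92.2 against 2936 ± 119, SD, n = 5). With the 2 transcripts of the annotation used here, which is the Ensembl release after that of the authors, these lengths correspond to a share of the long transcript of 37.4% ± 2.13 of *Btg1* molecules in WT and 52.3% ± 2.75 in cKO, 14.9 percentage points more. The share reached from 34.8% to 40.5% in WT and from 48.5% to 55.9% in cKO. Non-overlap of length was seen in 3.79% of the 11780 tested genes whose length varies, with longer transcripts in cKO in 2.87% and shorter ones in 0.925%, and 88 of them, or 0.747%, had a larger log2 ratio of lengths than *Btg1*, which stood at 0.36. These values come from the same contrast that chose the gene and are given without a test.

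On the TPM scale, which corrects for length, the long transcript of *Btg1* stood at 18.8 ± 2.76 TPM in WT and 47.0 ± 3.76 TPM in cKO, a ratio of the means of 2.50. The short transcript stood at 31.3 ± 3.07 TPM in WT and 43.2 ± 7.36 TPM in cKO, a ratio of 1.38. For neither did the genotypes overlap, the short transcript ranging from 28.1 to 35.3 TPM in WT and from 37.3 to 54.0 TPM in cKO. By this per-length estimate the short form was the more abundant in each of the 5 WT animals. In cKO crypts the long form was in 4 of 5, replicate 5 having 50.8 TPM of the long and 54.0 TPM of the short form. Of the counts, by the same split, the long form held most in both genotypes, 83.7% ± 1.23 in WT and 90.4% ± 0.967 in cKO. The gene as a whole stood at 50.1 ± 5.53 TPM in WT and 90.2 ± 10.6 TPM in cKO, a ratio of 1.80, against 2.48-fold in counts. The counts were TMM-normalized and the TPM values were not, so these ratios differ in normalization as well as in length correction. With the effective length as an offset in the count model the log2 fold change was 0.96. The split rests on RSEM's division of reads between these 2 models, and forms that are not annotated, such as other 3′ ends, cannot be seen in it. The first exon of the short transcript, of 275 bases, lies within an intron of the long one, and reads of unspliced RNA there were not told apart.

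**Figure D2:**
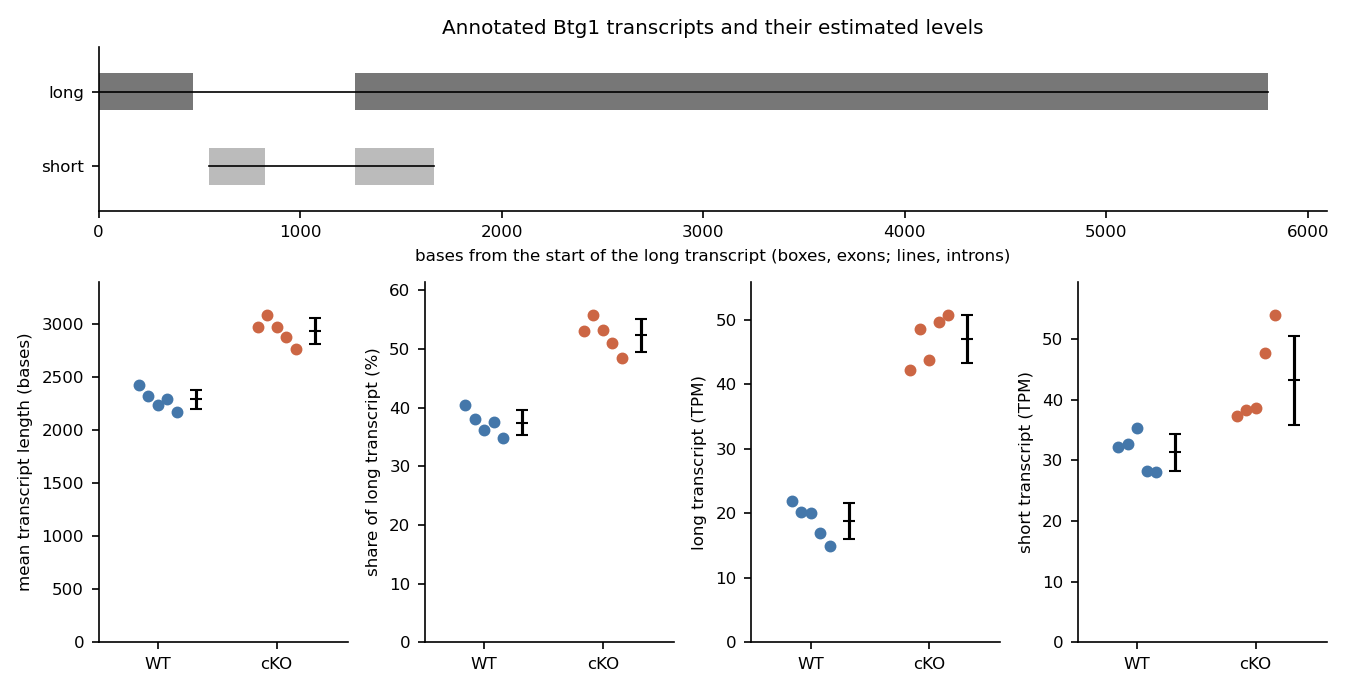
Top, the long and the short annotated Btg1 transcript drawn to scale in bases from the start of the long one. Bottom, mean transcript length in bases, share of the long transcript in percent and TPM of the long and short transcript in each library, with mean and SD, where the genotypes do not overlap in any of the 4 panels.

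*Tob1* (ENSMUSG00000037573, chr11:94211454-94215495, plus strand) rose in cKO crypts. Its level was 53.3, 52.1, 40.7, 37.6 and 45.3 CPM in the WT animals and 89.5, 72.2, 75.7, 82.1 and 82.7 CPM in the cKO animals. The genotypes did not overlap, and 19.6% of all genes did not overlap, 12.0% being higher and 7.63% lower in cKO. The mean went from 45.8 ± 6.90 to 80.4 ± 6.72 CPM (SD, n = 5), and the log2 fold change was 0.81 (SE 0.10, adjusted p 0.0006606 in edgeR). The gene has 1 annotated transcript, of 2288 bases, so no shift in length enters this value, and in TPM it went from 26.95 ± 3.91 to 44.4 ± 4.78. The call held under all alternative settings, with log2 fold changes from 0.68 to 0.87.

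*Btg2* (ENSMUSG00000020423, chr1:134075170-134079120, minus strand) rose by less. WT animals had 38.3, 31.1, 32.5, 23.4 and 27.2 CPM and cKO animals 39.7, 39.1, 35.6, 47.6 and 44.9 CPM. WT replicate 1 lay above cKO replicate 3 and just under replicate 2, so the genotypes overlapped. The means were 30.5 ± 5.61 and 41.4 ± 4.79 CPM (SD, n = 5), and the log2 fold change was 0.44 (SE 0.12, adjusted p 0.0199 in edgeR). *Btg2* has 1 annotated transcript, of 2743 bases. The call was lost without cKO replicate 5, where the log2 fold change was 0.41 (adjusted p 0.0559), and without WT replicates 3 and 4 together, where it was 0.36 (adjusted p 0.0780). Scaling by library size only ended it as well, at 0.31 (adjusted p 0.0710), and so did summing animals that share an identifier stem, at 0.36 (adjusted p 0.177).

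*Tob2* (ENSMUSG00000048546, chr15:81848272-81858796, minus strand), the closest relative of *Tob1*, did not pass the threshold. It stood at 78.2, 63.0, 64.6, 60.3 and 70.7 CPM in WT and 74.9, 67.9, 72.9, 86.5 and 78.3 CPM in cKO, with wide overlap. The means were 67.4 ± 7.16 and 76.1 ± 6.90 CPM (SD, n = 5), and the log2 fold change was 0.18 (SE 0.09, adjusted p 0.142 in edgeR). WT replicate 1 was the highest WT library, and without it the log2 fold change was 0.24 and the adjusted p 0.0497. Its mean transcript length differed by 23.52 bases, with a p of 0.206 in a two-sided exact permutation test over animals. After adjustment over the members whose length varies, *Btg1* included, this p was 0.23.

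*Btg3* (ENSMUSG00000022863, chr16:78332637-78377192, minus strand), whose protein binds E2F1 besides the deadenylase, was the least abundant of the 5. WT animals had 1.57, 3.38, 3.50, 2.81 and 3.27 CPM and cKO animals 2.43, 2.51, 2.24, 2.72 and 2.65 CPM. WT replicate 1 lay below all cKO libraries and the other 4 WT libraries above them. The means were 2.91 ± 0.791 and 2.51 ± 0.190 CPM (SD, n = 5), and the log2 fold change was -0.21 (SE 0.21, adjusted p 0.472 in edgeR). Without WT replicate 1 it was -0.37 (adjusted p 0.0874). The libraries hold 44.57 to 103.15 counts of the gene. Its mean transcript length differed by 28.25 bases (two-sided exact permutation p 0.23, also after adjustment). The gene overlaps *Cxadr* on the opposite strand, which stood at 72.0 CPM in WT crypts and rose to 95.4 CPM, and since the strand setting of the counting is not given in the sources used here, reads of the overlap may not be told apart.

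Of the 4 members other than *Btg1*, 2 thus passed the threshold, both higher in cKO, against 15.6% of all genes. This count is a description, since the members were chosen with earlier results known. *Btg4*, the remaining family gene, which is known for clearing maternal mRNA in oocytes, had 0 counts in 9 libraries and 1 count in cKO replicate 2. The annotated copies *Btg1-ps1* (chrX:38013173-38018815) and *Btg1-ps2* (chrX:38038199-38043114) had 0 counts in all 10 libraries, so no reads of *Btg1* were assigned to them.

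Levels of the members were compared per length, in TPM. The order from high to low was *Btg1*, *Tob1*, *Tob2*, *Btg2* and *Btg3*, and each step of it was found in 10 of 10 animals. The within-animal difference in log2 TPM was 0.96 ± 0.197 between *Btg1* and *Tob1*, 0.63 ± 0.371 between *Tob1* and *Tob2*, 0.42 ± 0.210 between *Tob2* and *Btg2* and 2.83 ± 0.571 between *Btg2* and *Btg3* (SD, n = 10). The pairs were set by the observed order, and *Btg1* chose the family, so these differences carry no test. The order was the same in both genotypes, but the distances were not. *Tob1* exceeded *Tob2* by 0.31 in WT and by 0.96 in cKO, and *Tob2* exceeded *Btg2* by 0.56 in WT and by 0.28 in cKO, on the log2 TPM scale. The difference between genotypes in these distances was not tested. In WT the ranges of *Tob1* (23.8 to 32.5 TPM) and *Tob2* (19.6 to 25.8 TPM) overlapped across animals, although within each animal *Tob1* was the higher.

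Summed over the 5 members, the family stood at 116.4 ± 12.3 TPM in WT and 178.4 ± 17.0 TPM in cKO, without TMM normalization. *Btg1* made up 43.1% ± 2.10 of this sum in WT and 50.5% ± 3.14 in cKO, *Tob1* 23.1% and 24.9%, *Tob2* 18.7% and 12.8%, *Btg2* 12.7% and 10.6%, and *Btg3* 2.34% and 1.19%. *Tob2*, whose own level differed little, had shares of 16.4% to 20.1% in WT and 11.9% to 13.9% in cKO. The shares include *Btg1*, which chose the family and whose TPM rests on RSEM's split between its 2 transcripts, and carry no test.

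**Figure D3:**
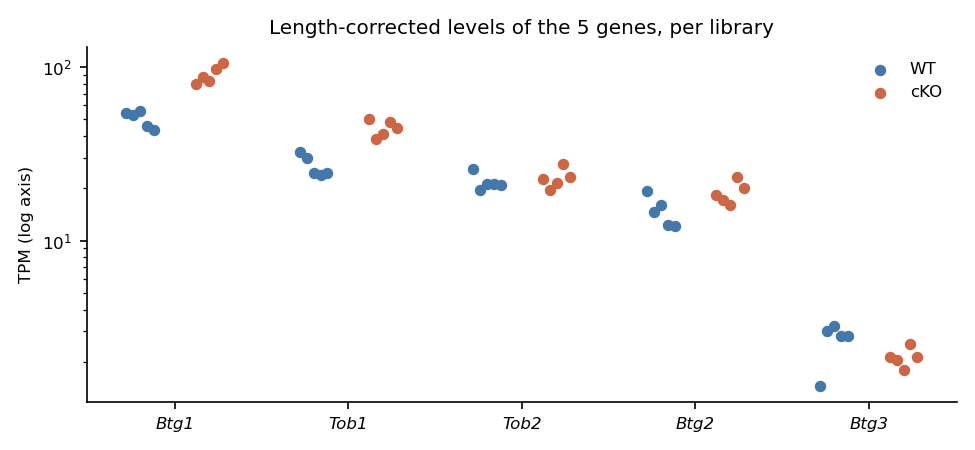
Length-corrected level of the 5 members in TPM on a log axis, ordered from high to low, with each point 1 library (WT left, cKO right within each gene). Btg1 is highest and Btg3 lowest in every library, and the gap between Tob1 and Tob2 is wider in cKO. The TPM of Btg1 rests on RSEM's split between its 2 annotated transcripts.

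Of 12 genes of CCR4-NOT, the deadenylase complex that the family recruits, all were tested, 0 rose and 2 fell in edgeR, against 15.6% and 12.7% of all genes, and 4 had an unadjusted p under 0.05. The median log2 fold change of the list was -0.09. *Cnot3*, a scaffold subunit, fell from 72.4 to 61.5 CPM (log2 -0.23, adjusted p 0.0127) and *Cnot10* from 64.4 to 54.7 CPM (-0.24, adjusted p 0.0301). The CAF1 deadenylases that BTG and TOB proteins bind did not pass, with WT and cKO means of 59.3 and 62.7 CPM for *Cnot7* and of 38.7 and 39.5 CPM for *Cnot8*. *Cnot1*, the central scaffold and the most abundant of the list, stood at 320.6 and 301.8 CPM. Leaving out any 1 of WT replicates 3 and 4 and cKO replicates 1, 4 and 5 left 1 call. The count also changed with the processing, from 0 with the effective length as an offset to 6 with scaling by library size only, a setting that lowers the median of all genes to -0.16.

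Among 16 genes for poly(A) binding proteins and regulators of the tail, of which 15 were tested, 4 rose and 0 fell in edgeR, against 15.6% and 12.7% of all genes, 5 having an unadjusted p under 0.05, and the median was 0.01. The 4 were 3 members of the CPEB family, which bind cytoplasmic polyadenylation elements in mRNAs, and *Zfp36*, which directs CCR4-NOT to AU-rich mRNAs. *Cpeb4* rose from 14.2 to 28.7 CPM (1.02 on the log2 scale, adjusted p 0.000833), *Cpeb2* from 12.2 to 20.8 CPM (0.77, adjusted p 0.00181) and *Zfp36* from 31.3 to 59.1 CPM (0.92, adjusted p 0.00437). The fourth was *Cpeb3*, named after its values were seen, at 2.45 and 4.79 CPM (0.96, adjusted p 0.00566). *Pabpc1*, to which TOB proteins bind, was the most abundant of the list and did not pass (2424 CPM in WT, 2219 in cKO). Relatives of *Zfp36* did not pass either, *Zfp36l1* standing at 0.01 and *Zfp36l2* at -0.12 on the log2 fold change scale.

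Of 7 other partners of the family, 6 were tested, 1 rose and 1 fell, a share near that of all genes (15.6% and 12.7%), with a median log2 fold change of 0.15. *Prmt1*, an arginine methyltransferase whose activity BTG1 and BTG2 stimulate, fell from 132 to 95.9 CPM (-0.46 on the log2 scale, adjusted p 0.00336). *Erbb2*, the receptor from which TOB1 takes its name, rose from 110.7 to 132.6 CPM (0.26, adjusted p 0.0208). *Smad1*, *Smad4* and *Smad5*, through which TOB1 dampens BMP signals, and the kinase gene *Mapk3* did not pass, with log2 fold changes from -0.04 to 0.23. *Hoxb9*, a partner of BTG1 and BTG2 proteins, was at or near 0 counts and was not tested. Without WT replicate 2, 4 genes of this list were called in place of 2, and without WT replicate 4 or cKO replicate 1 the count was 1.

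Of 12 genes of the G1 phase, on which the family is known to act, 2 rose and 7 fell, against 15.6% and 12.7% of all genes, and the median was -0.38 on the log2 scale. *Cdk2* (-0.49, adjusted p 0.0007355), *E2f1* (-0.59, adjusted p 0.00188) and *Ccne1* (-0.76, adjusted p 0.00242), which drive entry into S phase, fell. *Rb1*, which holds E2F factors in check, rose from 33.4 to 51.4 CPM (0.62, adjusted p 0.00593), and *Cdkn1a*, the inhibitor p21, from 40.4 to 69.5 CPM (0.78, adjusted p 0.00742). *Cdkn1b*, the inhibitor p27, stood at 51.3 and 53.95 CPM and did not pass.

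Known inputs into the family were read from 3 lists. Of 17 genes of the FOXO group, factors of which induce *Btg1* in other cells, 7 rose and 0 fell in edgeR, against 15.6% and 12.7% of all genes, 10 having an unadjusted p under 0.05, and their median was 0.35 on the log2 scale. They included the growth arrest gene *Gadd45a* (0.68, adjusted p 0.0008004), the transcriptional coregulator *Cited2* (0.72, adjusted p 0.00114) and *Irs2*, which couples the insulin receptor to its signal (1.06, adjusted p 0.00143). Of the FOXO factors themselves, *Foxo3*, named after its values were seen, rose from 52.8 to 71.9 CPM (0.45, adjusted p 0.00653), while *Foxo1* and *Foxo4* did not pass, at 0.14 and 0.11. Of 16 p53 genes, 4 rose and 3 fell, against the same 15.6% and 12.7%, with a median of -0.02. *Perp* (0.55, adjusted p 0.00103), *Cdkn1a* and *Pmaip1* (0.80, adjusted p 0.0077) rose, while *Trp53* itself (-0.44, adjusted p 0.00149), *Aen* (-0.56, adjusted p 0.0054) and *Phlda3* (-0.84, adjusted p 0.0439) fell.

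Of 18 immediate early genes, the class to which *Btg2* belongs, 17 were tested, 5 rose and 3 fell (15.6% and 12.7% of all genes), with a median log2 fold change of 0.06. *Klf6* (1.00, adjusted p 0.0008331), *Klf4* (0.70, adjusted p 0.00165) and *Zfp36* rose, and *Egr2* (-1.60, adjusted p 0.0161), *Myc* (-0.33, adjusted p 0.0177) and *Nr4a1* (-1.16, adjusted p 0.0194) fell. *Egr2* and *Nr4a1* were low, at 1.31 and 1.54 CPM in WT. Without WT replicates 3 and 4 together, 3 genes of this list were called in place of 8.

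**Figure D4:**
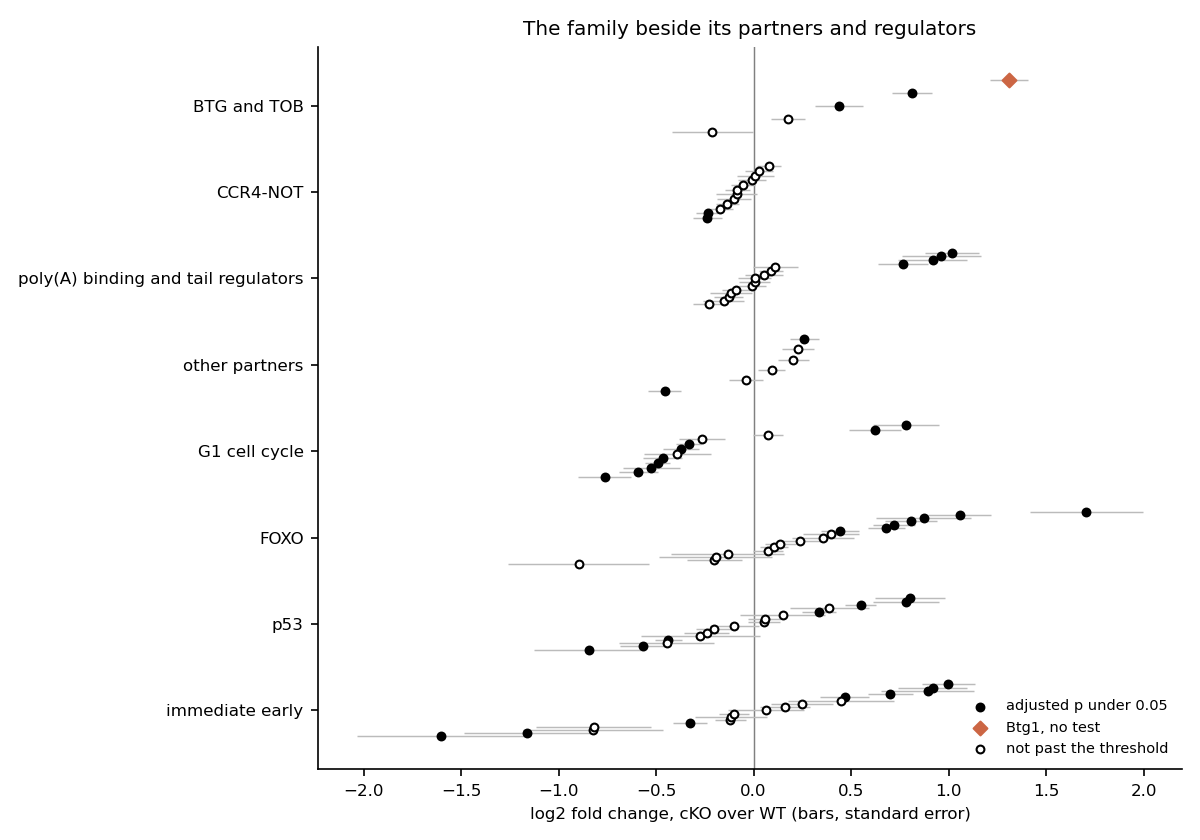
Log2 fold change of cKO over WT for each tested gene of the family and of 7 lists, with standard errors as bars, filled points past the adjusted threshold in edgeR, open points not past it and Btg1 as a diamond without a test. CCR4-NOT genes lie near 0 (median -0.09), 4 tail regulators stand apart at 0.77 to 1.02, and 7 of 12 G1 genes lie on the lower side past the threshold.

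The genes whose pattern over the 10 libraries was most like that of each member were ranked by Pearson's r of log2 CPM among 11018 protein-coding genes. Closest to *Btg1* were *Rnf128* (r = 0.992), *Csnk1g3* (0.992) and *Cept1* (0.988). *Tob1* was closest to *Parp12* (0.991), *Tbcel* (0.991) and *Tmem236* (0.990), and *Btg2* to *Snrk* (0.984), *Cnnm2* (0.978) and *Ip6k1* (0.976). The best likeness was lower for *Tob2*, to *Zfp426* (0.922), *Slu7* (0.894) and *Cep120* (0.893), and for *Btg3*, to *Csnk1d* (0.884), *Anapc11* (0.853) and *Egln1* (0.834). The libraries are those of 2 genotypes, so a gene that differs between genotypes resembles *Btg1* and *Tob1* for that reason already, and r is a description over 10 points.

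Enterocyte markers were higher in cKO, as were *Btg1* and *Tob1*. Of 10 enterocyte markers, 9 rose and 0 fell, against 15.6% and 12.7% of all genes, and all were detected in every library. The calls were 5 without WT replicate 3 or cKO replicate 4 and 3 without cKO replicate 5. Their summed level was 1789 to 7444 CPM in WT and 9062 to 16105 CPM in cKO, without overlap, as for *Btg1* and *Tob1*. Within WT, replicates 4 and 3 had the lowest sums, at 1789 and 2721 CPM, followed by replicate 5 at 4115, replicate 1 at 5034 and replicate 2 at 7444 CPM. In that same sequence of animals *Tob1* stood at 37.6, 40.7, 45.3, 53.3 and 52.1 CPM and *Btg1* at 71.7, 90.4, 76.0, 94.1 and 94.1 CPM. The summed T cell markers, given below, put WT replicates in the order 4, 3, 5, 2 and 1 from low to high, as *Tob1* did. In cKO they gave the order 3, 2, 1, 5 and 4, which *Tob1* did not follow. Among cKO animals the order by enterocyte sum was replicates 3, 2, 1, 4 and 5. There *Tob1* stood at 75.7, 72.2, 89.5, 82.1 and 82.7 CPM and *Btg1* at 199, 223, 187, 211 and 238 CPM, so neither followed that order. *Vil1*, whose promoter drives the Cre, rose from 646 to 1122 CPM. Of 5 stem cell markers, 0 rose and 4 fell (15.6% and 12.7% of all genes), with a median of -0.46 on the log2 scale. With any 1 of WT replicates 3 and 4 and cKO replicates 1, 3 and 5 left out, 1 of 5 was called. Of 10 secretory markers, 4 rose and 2 fell (15.6% and 12.7% of all genes), with 3 called without cKO replicate 4. Their log2 fold changes were positive for 8 and negative for 2, with a median of 0.27. Risen were *Chga* (0.42), *Chgb* (0.43), *Dclk1* (0.20) and *Trpm5* (0.25), and fallen *Lyz1* (-0.60) and *Mmp7* (-1.01), all named after their values were seen. The list summed to a median of 7781 CPM over WT animals against 5997 CPM over cKO animals. *Lyz1* alone averaged 6607 CPM in WT and 4367 CPM in cKO. Without WT replicates 3 and 4 together, 1 stem cell and 2 secretory markers were called. In bulk RNA a change in the number of cells of a type and a change in RNA per cell cannot be told apart, and the part of cell composition in the family's levels was not tested.

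Lymphocytes are rich in *Btg1*, and their markers were present at low levels. The 8 B cell markers summed to 22.1 to 82.2 CPM in WT and 8.78 to 30.7 CPM in cKO, all 8 having negative log2 fold changes. The 2 that passed the threshold were *Cd79b* and *Jchain*, against 12.7% of all genes lower in cKO. Of these markers, 4 passed without cKO replicate 5 but 1 when WT replicate 4, cKO replicate 1 or cKO replicate 4 was left out. *Pax5*, which defines B cells, was at 0 in some libraries of each genotype. Of 10 tested T cell markers, 0 were called in edgeR, DESeq2 or limma-voom and 0 had an unadjusted p under 0.05 in edgeR, with sums of 70.8 to 278 CPM in WT and 126 to 306 CPM in cKO. Without cKO replicate 5, 1 T cell marker was called. Myeloid markers (8 genes, 54.1 to 117 CPM in WT and 26.8 to 131 CPM in cKO) and stromal markers (9 genes, 23.8 to 104 and 19.2 to 156 CPM) overlapped between genotypes, with 0 genes rising and 2 falling in each list. Of all genes, 15.6% rose and 12.7% fell. With 1 animal left out, 0 to 3 myeloid and 1 to 5 stromal markers were called, and without WT replicates 3 and 4 together 1 B cell, 0 myeloid and 0 stromal markers were in edgeR (3 myeloid and 1 stromal marker at an unadjusted p under 0.05).

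**Figure D5:**
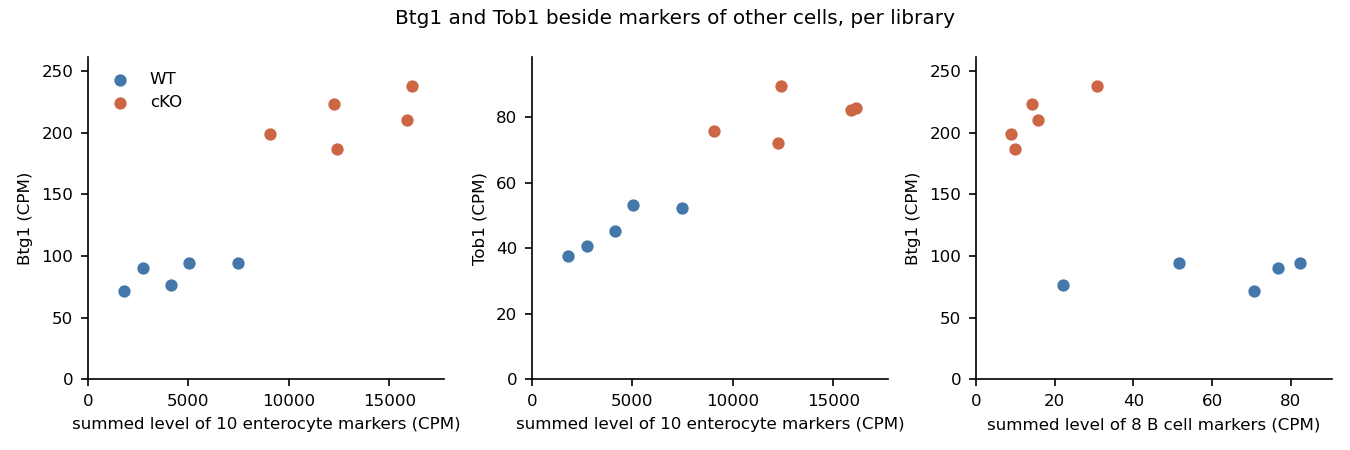
Btg1 and Tob1 in CPM against the summed level of 10 enterocyte markers, and Btg1 against that of 8 B cell markers, each point 1 library of WT or cKO. The genotypes separate on both axes for the enterocyte sum, and B cell sums are 22.1 to 82.2 CPM in WT and 8.78 to 30.7 CPM in cKO.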

How the data were processed

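RNA of jejunal crypts was sequenced as polyA libraries (KAPA mRNA Hyper Prep kit). Per the labels and the methods, reads were aligned with STAR and quantified with RSEM by the authors, who ran nf-core/rnaseq on GRCm38 with Ensembl gene models. Deposited for each library were the expected count, TPM, FPKM, length and effective length of 54838 genes, the expected counts not being normalized across libraries. The TPM values were used as deposited by the authors, without TMM normalization, and the FPKM values were not used here. The lengths, in bases, are RSEM's abundance-weighted means. The strand setting is not given in the sources used here.

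After rounding, the counts were fitted with edgeR 4.0.16 under R 4.3.3. The filter was filterByExpr (minimum count 10, minimum total 15), the normalization TMM, and the test of genotype the robust quasi-likelihood test, with Benjamini-Hochberg adjustment over 14719 genes at a threshold of 0.05. The authors' model in DESeq2 also held time, which has 1 level here. Replicates are separate animals. Groups and replicate numbers came from the labels. DESeq2 1.42.0 and limma 3.58.1 were alternatives. The script was tested on simulated counts with known changes. Symbols and gene models came from an annotation of GRCm38, which held 54723 of the identifiers; genes without a symbol took 0.0193% of counts.

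The members and the gene lists were chosen with earlier results of these data known. A gene was taken off the list of other partners and is not reported here. Genes named from a list were up to 3 in each direction with the smallest adjusted p, or the most abundant where none passed. Genes most like a member were the 3 with the highest r among protein-coding genes with a mean of at least 50 counts. For the exact tests, all 252 assignments of 5 against 5 animals were used; the order of levels, planned with a sign-flip test, is given without one. The share of the long *Btg1* transcript was solved from the mean length and the annotated lengths of both transcripts. At totals of 27050455 to 31053622 counts, counting error is small for all members but *Btg3*, and reads carry no molecular identifiers.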

Additional observations from a re-analysis of the deposited data

Results flagged for a closer look

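In each genotype, a library was singled out when its gap to the nearest other library took more than 0.710 of the range over the 5 animals. Of 62 groups of values checked, 3 met this, and chance alone singles out about 1 in 20. *Btg3* was lowest in WT replicate 1, at 1.45 TPM, against 2.84 TPM at the WT median. *Tob2* was highest in the same library, at 25.81 TPM, against a WT median of 21.1 TPM. In CPM neither gene singled out this library, the gap taking 0.647 of the range for *Btg3* and 0.415 for *Tob2*. The summed level of the stromal markers was highest in cKO replicate 4, at 155.51 CPM, and without this library 5 stromal markers passed the threshold in place of 2.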

How the results depend on the processing

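*Tob1* kept its direction and call under all 23 alternatives (adjusted p from 3.07e-10 to 0.00833), and *Btg3* stayed short of the threshold under all 23. On the log2 fold change scale, *Btg2* kept its direction but lost the call with scaling by library size only (0.31), in animals summed by identifier stem (0.36), without WT replicates 3 and 4 together (0.36), and in limma on log2(TPM + 1) (0.33, also without a filter) and log2(TPM + 0.1) (0.35). Leaving out 1 animal at a time gave 0.36 to 0.54 for *Btg2*, 0.13 to 0.24 for *Tob2*, -0.37 to -0.14 for *Btg3*, 1.26 to 1.35 for *Btg1*, and 3007 to 4684 genes that differed. *Btg1* moved to 0.96 with the effective length as an offset and to 0.83, 0.84 and 0.83 in the same 3 limma settings. CCR4-NOT genes called were 6 with library size only, 1 with no filter on low counts, 0 with the effective length (4 at an unadjusted p under 0.05), 0 without WT replicates 3 and 4 (2 unadjusted), 1 by stem, 5 and 5 in limma on TPM, 0 in limma without a filter (6 unadjusted), and 1 to 3 with 1 animal left out; DESeq2 is among the settings that stayed within 1.5 times. Without WT replicates 3 and 4 together, 2143 genes differed in place of 4167. Of the genes called, the part higher in cKO was 55.1%, but 27.7% with library size only, 33.7% in limma on log2(TPM + 1), 65.2% by stem and 68.7% without WT replicates 3 and 4. The cause of these shifts was not tested. In WT alone the order of levels gave differences of 0.90, 0.31, 0.56 and 2.51 and in cKO alone of 1.02, 0.96, 0.28 and 3.15.

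WT and cKO libraries share replicate numbers, but same-numbered libraries did not deviate together (r from -0.212 to 0.0947 over 5 pairs), and 0 of 5 WT libraries correlated best with their own number. With the replicate number as a block, 3052 genes differed, *Btg2* stood at 0.45 on the log2 scale (adjusted p 0.0589 in edgeR), and 0 CCR4-NOT genes were called (3 at an unadjusted p under 0.05).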
